A study of Mus musculus with 10 samples.

Results

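The genes described here are 36 cell cycle and mitosis genes, taken by name from a list and found by their Ensembl identifiers in count and RPKM tables of 41388 genes. They were followed in liver RNA of 10 mice of 10 weeks. Of these, 3 were F1 males born to BFMI dams and sired by B6N (matBFMI), and 3 were F1 males of the opposite cross, with B6N dams and BFMI sires (patBFMI), each male from a dam of its own. The others were 1 male and 1 female of each inbred strain, BFMI860-12/Hber (BFMI), a mouse line that carries a recessive mutation for juvenile obesity, and C57BL/6NCrl (B6N), which is lean. The F1 males were weaned onto a high fat diet on day 21 and killed on day 70. For the inbred animals the sources disagree, since a standard breeding diet is named in the sample records and a high fat diet in the design of the study. The study asked how the direction of the cross acts on fat deposition in males. With 1 animal of each sex, an inbred strain is represented by 2 mice, and strain differences rest on so few animals.

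A dividing cell passes through a phase of growth (G1), the copying of its DNA (S phase), a second gap (G2) and mitosis. Cyclins bind and activate cyclin-dependent kinases at each step, inhibitors such as p21 and p27 hold these kinases back, and the factors E2F1 and FOXM1 switch on the genes of S phase and of mitosis, respectively. In mitosis the kinetochore ties chromosomes to the spindle, and the spindle checkpoint delays their separation until all are attached. Most hepatocytes of an adult liver rest outside the cycle and enter it after injury or loss of tissue, so transcripts of dividing cells are scarce, and in whole liver they can come from hepatocytes or from other cells. From bulk RNA it cannot be told apart whether fewer cells divided or each held less of a transcript.

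Library sizes, as reads assigned to genes, ran from 46988713 to 96023811, the highest being the BFMI male. Hepatocyte markers (Alb, Apoa1, Ttr, Serpina1c and Cyp2e1) summed to 55813 to 82351 CPM (counts-per-million, with library sizes scaled by TMM), so the labelled tissue held its defining transcripts in every library. The library patBFMI 1 had 32421 genes with a count against 22095 to 26694 in the other F1 libraries, and the inbred libraries had 29942 to 34572. Genes of olfactory and vomeronasal receptors, 1653 genes that liver does not use, served as a background and lay at 0.00403 to 0.026 CPM per kb of exon. In every library each of the 36 genes lay above the background of its own library. Markers of pancreas stood out in B6N, where Prss2 was at 2.29 CPM in the male and at 11.4 CPM in the female against at most 0.059 CPM in the other 8 libraries. Lanes followed the groups, with matBFMI on lane 6, patBFMI on lane 5, the BFMI male on lane 1 and the other inbred animals on lane 4. Lane therefore cannot be told apart from group in comparisons of the F1 groups with each other or with the inbred animals, while the BFMI female and both B6N animals shared a lane.

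The 36 genes differed widely in level, with the genes of mitosis mostly below those of S phase. Per kb of exon, the inhibitor Cdkn1b (p27) was highest with a mean of 4.93 CPM per kb over the 10 libraries, followed by Pcna (4.06), the sliding clamp of DNA polymerase, and by Ccnd1 (3.2), the cyclin of early G1. The other S phase genes lay between 0.411 (Mcm2) and 1.47 CPM per kb (Mcm7). These encode the MCM helicase that opens the DNA (Mcm2 to Mcm7), ribonucleotide reductase (Rrm1, Rrm2) and thymidylate synthase (Tyms). Genes of G2 and mitosis ran from 0.0785 CPM per kb for the kinase gene Plk1 to 0.528 for Aurka, a kinase of the centrosome. Counts were low there, and Ccnb1, Ccnb2, Cdc20, Plk1, Bub1, Ndc80 and Nuf2 had between 2 and 19 reads in each F1 library.

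Within the NDC80 complex, which links the kinetochore to microtubules and holds its 4 proteins in equal number, the transcripts were far from equal. Spc24 (2.43 CPM per kb) and Spc25 (1.66) were next after Ccnd1 in the order of the 36 genes, whereas Nuf2 (0.0517) and Ndc80 (0.0394) were the lowest 2. The sum of Spc24 and Spc25 per kb was 41.3 to 171 times that of Ndc80 and Nuf2 in the F1 libraries and 19.2 to 51.5 times in the inbred libraries. Neither Spc24 nor Spc25 shares exon bases with another gene in the GENCODE M21 annotation of GRCm38.

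**Figure D1:**
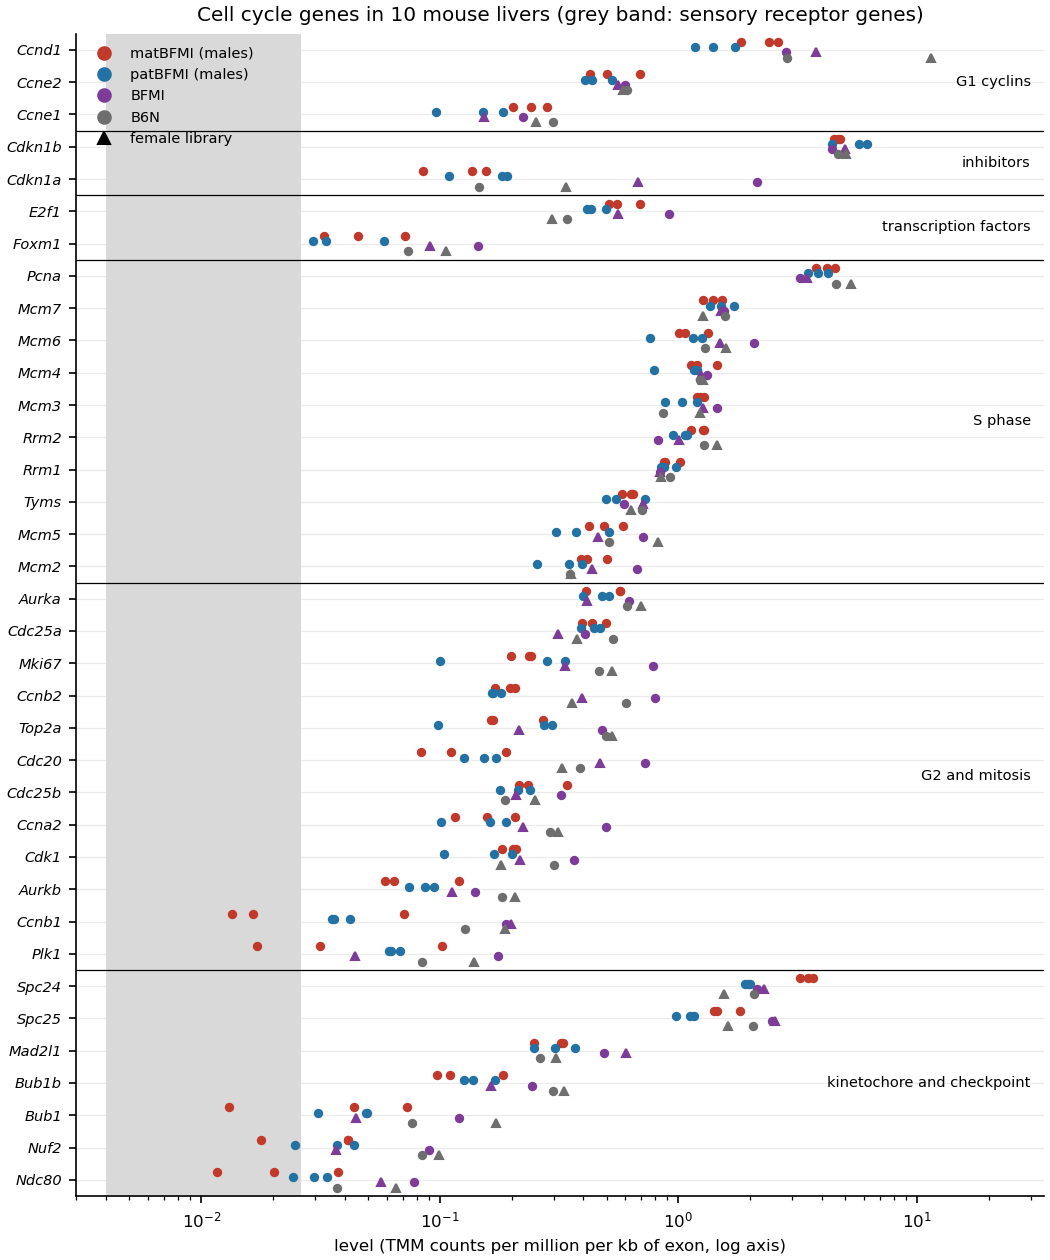
Level of each of the 36 genes in each library, in TMM scaled CPM per kb of exon on a log axis, with genes grouped by role, groups by colour and female libraries as triangles. The grey band spans the sensory receptor genes over the 10 libraries (0.00403 to 0.026), and most genes of G2, mitosis and the kinetochore lie lower than those of S phase, apart from Spc24 and Spc25.

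When the roles were summed, the S phase genes varied little between animals. Their sum was 44.4 to 54.3 CPM in the F1 libraries and 52.4 to 57.8 CPM in the inbred libraries. The 12 genes of G2 and mitosis spread more, with 8.7 to 15 CPM in the F1 libraries against 14.4 CPM in the BFMI female, 20.8 and 21.2 CPM in B6N and 26.2 CPM in the BFMI male. The kinetochore and checkpoint genes, which are dominated by Spc24 and Spc25, summed to 16.7 to 19.1 CPM in matBFMI and 11.4 to 13 CPM in patBFMI. The G1 cyclins reached 56.5 CPM in the B6N female and were between 7.18 and 20.2 CPM in the other 9 libraries.

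**Figure D2:**
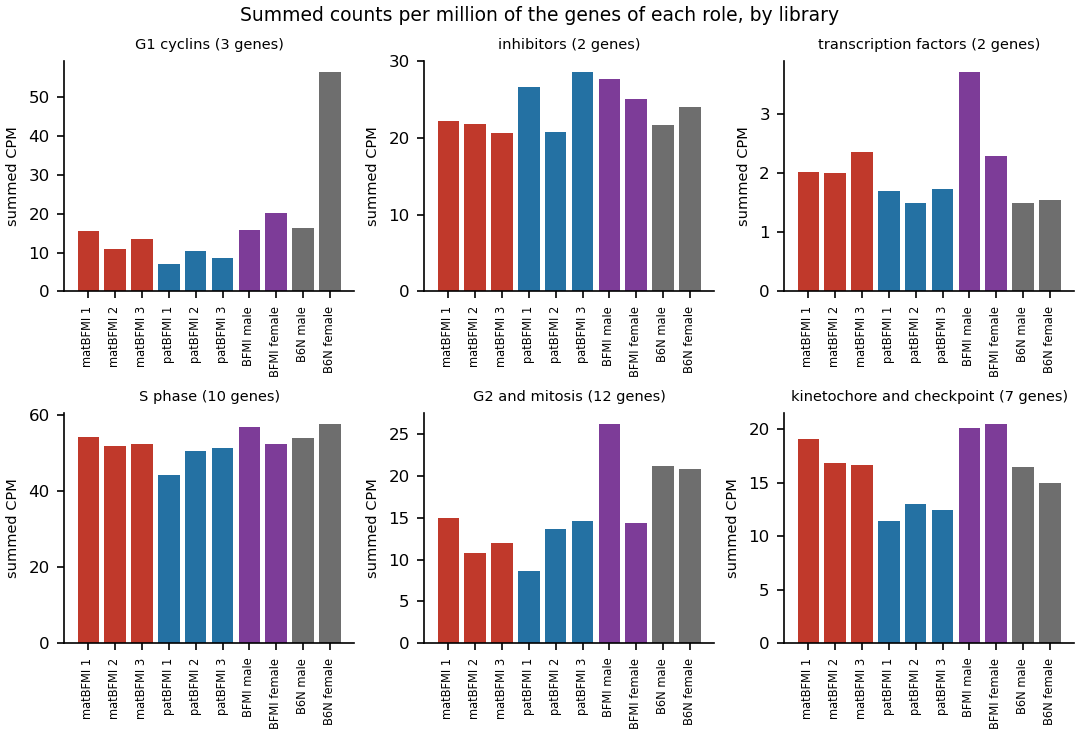
Summed CPM of the genes of each role in each library (bars start at 0, colours mark the groups). The S phase sum stays between 44.4 and 57.8 CPM, while the sum of G2 and mitosis runs from 8.7 CPM in patBFMI 1 to 26.2 CPM in the BFMI male.

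Between the 2 kinds of F1 males the gene that differed was Spc24. It was at 9.03, 8.36 and 9.4 CPM in the matBFMI animals (483, 481 and 497 reads) and at 5.12, 4.91 and 5.04 CPM in the patBFMI animals (260, 230 and 299 reads). The groups did not overlap, and matBFMI also lay above all 4 inbred libraries, which held 3.99 to 5.88 CPM. Spc24 was thus 1.76 fold higher in matBFMI, a log2 fold change of 0.82 (standard error, SE, 0.0983, adjusted p = 0.0292, edgeR), with a mean of 8.93 ± 0.528 against 5.02 ± 0.105 CPM (SD, n = 3 each). The gene lies on chromosome 9 from 21755442 to 21760303 (GRCm38). Spc24 was the only one of 33 members tested that passed, while 0.143% of all 16797 genes tested were called, 16 higher and 8 lower (45 and 11 when libraries were scaled by their size only). Its direction held without each library in turn, but the call was lost without matBFMI 1, matBFMI 2, matBFMI 3, patBFMI 1 or patBFMI 3 (adjusted p up to 0.139).

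The partner Spc25 was at 5.78, 4.64 and 4.5 CPM in matBFMI and at 3.11, 3.56 and 3.71 CPM in patBFMI. These groups did not overlap either, but the log2 fold change of 0.51 (SE 0.14) missed the threshold (adjusted p = 0.263). The remaining kinetochore and checkpoint genes that could be tested did not pass, with log2 fold changes of -0.04 for Mad2l1, -0.16 for Bub1b, -0.08 for Nuf2 and 0.01 for Bub1. Their SEs were 0.188 for Mad2l1, 0.312 for Bub1b, 0.431 for Nuf2 and 0.554 for Bub1, so a difference as large as that of Spc24 could not have been told from the spread for the scarcest of them. Ndc80, Ccnb1 and Plk1 had too few reads in the F1 males to be tested.

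Of the G1 cyclins, Ccnd1 had the second smallest p of the 33 genes. It was at 12.3, 8.63 and 11.3 CPM in matBFMI and at 5.51, 8.15 and 6.57 CPM in patBFMI. All matBFMI values were above all patBFMI values, with a log2 fold change of 0.66 (SE 0.167, adjusted p = 0.231), and the gene passed with DESeq2 (adjusted p = 0.0256). Ccne1, the cyclin of entry into S phase, was at 0.748, 0.539 and 0.643 CPM in matBFMI and at 0.256, 0.406 and 0.489 CPM in patBFMI (log2 fold change 0.72, SE 0.309, adjusted p = 0.496). Its relative Ccne2 overlapped between the groups, at 2.41, 1.75 and 1.49 CPM in matBFMI and 1.42, 1.84 and 1.52 CPM in patBFMI. Of the 33 genes tested, 7 (Mcm3, Rrm2, Spc24, Spc25, Ccnd1, Ccne1 and E2f1) had every matBFMI library above every patBFMI library and none showed the reverse, while 8.25% of all genes tested had every matBFMI library above every patBFMI library.

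Among the genes of S phase, G2 and mitosis and the inhibitors none passed between the F1 groups with edgeR or with DESeq2, and none had an unadjusted p under 0.05. The 10 S phase genes had a median log2 fold change of 0.16, beside -0.01 over all genes tested. Pcna was at 10.1, 9.03 and 10.9 CPM in matBFMI and at 10.2, 9.2 and 8.37 CPM in patBFMI, and Rrm1 was at 9.7, 11.1 and 9.55 against 9.58, 9.33 and 10.7 CPM. Among genes of G2 and mitosis, Cdc25a, the phosphatase that releases cyclin-dependent kinases, was at 4, 3.18 and 3.48 CPM in matBFMI and at 3.15, 3.54 and 3.77 CPM in patBFMI, and Aurka was at 1.44, 1.04 and 1.44 against 1, 1.22 and 1.3 CPM. The 10 genes of that role that could be tested had a median of 0.04. Cdkn1b was at 21.7, 21.3 and 20.4 CPM in matBFMI and at 26, 20.1 and 28.2 CPM in patBFMI, with overlapping ranges. Mki67, the common marker of dividing cells, was at 2.37, 2 and 2.42 CPM in matBFMI and at 1, 2.84 and 3.35 CPM in patBFMI, so the patBFMI values lay on both sides of the matBFMI values. E2f1 was at 1.61, 1.74 and 2.17 CPM in matBFMI and at 1.36, 1.3 and 1.57 CPM in patBFMI (adjusted p = 0.575), and Foxm1 at 0.411, 0.261 and 0.189 against 0.334, 0.192 and 0.169 CPM (adjusted p = 0.871). The E2f1 groups did not overlap and the Foxm1 groups did.

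**Figure D3:**
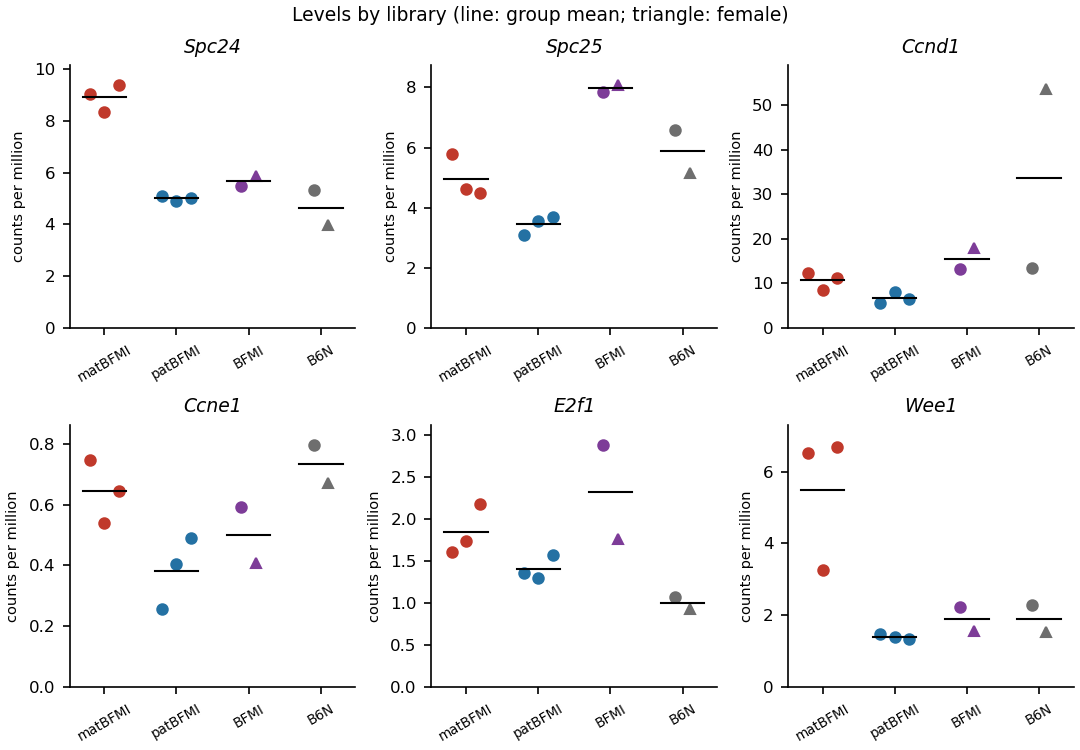
CPM of Spc24, Spc25, Ccnd1, Ccne1, E2f1 and Wee1 in each library (points), with group means as lines, females as triangles and axes that start at 0. Spc24 separates matBFMI (8.36 to 9.4 CPM) from every other library (3.99 to 5.88 CPM), and Ccnd1 stands at 53.7 CPM in the B6N female.

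Lists of related genes were examined as well. Among 31 regulators of G1 and S phase, of which 29 were tested, 1 passed. This was Wee1, the kinase that restrains Cdk1 before mitosis and a gene known to be driven by the circadian clock in liver, at 6.52, 3.25 and 6.69 CPM in matBFMI and at 1.48, 1.41 and 1.35 CPM in patBFMI. The matBFMI libraries lay above all others, and the difference was 3.85 fold (log2 fold change 1.94, SE 0.271, adjusted p = 0.0452). Its call was lost without matBFMI 1, matBFMI 3 or any 1 patBFMI library (adjusted p up to 0.193). None of 43 further S phase genes, 51 further genes of G2 and mitosis and 25 p53 targets tested passed with edgeR, while 2, 1 and 2 of them had an unadjusted p under 0.05 (4.65%, 1.96% and 8%, beside 9.85% of all genes tested), and the medians were 0.05, -0.02 and 0.11. Among the p53 targets Plk3, a stress response kinase, came closest, at 41.6, 18.7 and 43.7 CPM in matBFMI and at 8.76, 10.3 and 11.5 CPM in patBFMI (adjusted p = 0.0668). Beside these results, the 11 markers of Kupffer cells or macrophages summed to 223 to 256 CPM in matBFMI and to 281 to 296 CPM in patBFMI. All 11 were lower in matBFMI and none was past the threshold. At an unadjusted p under 0.05 (edgeR) there were 8 of the 11 (72.7%, beside 9.85% of all genes tested). The part of these markers in the result was not tested.

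Between the F1 males and the inbred animals, 2 genes of mitosis, 1 of the kinetochore and 1 inhibitor passed while no gene of S phase did. The comparison set the mean of matBFMI and patBFMI against the mean of BFMI and B6N in 1 fit of all 10 libraries with a term for sex. All F1 animals were male and the sex term came from the inbred animals, so the estimate was in effect F1 males against inbred males. Ccnb2, Cdc20, Spc25 and Cdkn1a passed, all lower in the F1 males, which makes 4 of 36 against 0.916% of the 19974 genes tested that were called lower (2.05% in either direction). Ccnb1 and Plk1 entered the fit only through the inbred libraries, so their sign was set by the filter on low counts. The other 10 genes of G2 and mitosis all had log2 fold changes below 0 with a median of -1.09, and the 7 kinetochore and checkpoint genes had a median of -0.98, while the S phase genes had a median of -0.09 and all genes tested one of 0.01. Of the S phase genes Mcm6 had an unadjusted p under 0.05 (log2 fold change -0.60, adjusted p = 0.169), and it passed with no filter on low counts though not with DESeq2. Cross and lane differ together here and cannot be told apart, and the diet may differ too, since the sources disagree on it.

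Ccnb2 encodes cyclin B2, which drives entry into mitosis with Cdk1. It was at 0.318, 0.261 and 0.303 CPM in matBFMI and at 0.256, 0.277 and 0.253 CPM in patBFMI, against 1.23 CPM in the BFMI male, 0.602 in the BFMI female, 0.924 in the B6N male and 0.549 in the B6N female. No F1 library reached the lowest inbred one, and the F1 values hardly spread. The log2 fold change, in effect against the inbred males, was -1.94 (SE 0.245, adjusted p = 0.00766), a 3.83 fold lower level in F1. It rested on 13 to 17 reads per F1 library and 27 to 124 per inbred library. The annotated copy Ccnb2-ps held 22 to 48 reads in each of the 10 libraries, so reads of the gene and of its copy may be exchanged.

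Cdc20 activates the complex that ends mitosis by destroying cyclin B. It was at 0.355, 0.156 and 0.208 CPM in matBFMI, at 0.236, 0.32 and 0.286 CPM in patBFMI, and at 1.35, 0.874, 0.721 and 0.61 CPM in the BFMI male, BFMI female, B6N male and B6N female. Its exons share 53 bases with those of Elovl1, which held 737 to 2106 reads, and reads there may belong to either gene. The ranges were apart again, with a log2 fold change of -1.93 (SE 0.307, adjusted p = 0.0169). Spc25 was at 7.86 and 8.08 CPM in the BFMI male and female and at 6.58 and 5.17 CPM in the B6N male and female, while the F1 libraries lay between 3.11 and 5.78 CPM. Here matBFMI 1 overlapped the B6N female, and the log2 fold change was -0.79 (SE 0.135, adjusted p = 0.021). Spc24, its partner, did not pass (log2 fold change 0.31, SE 0.123, adjusted p = 0.245). The ratio of Spc24 to Spc25 in CPM was 1.36 to 2.09 in the F1 libraries and 0.699 to 0.809 in the inbred libraries, a ratio that was chosen after its values were seen and was not tested.

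Promoters of many genes of mitosis, Ccnb2 and Cdc20 among them, are known to carry the cell cycle genes homology region (CHR), an element bound through the MuvB core of the DREAM complex, near CCAAT boxes bound by NF-Y. The promoters of Ccnb2, Cdc20 and Spc25 are shown because these mitotic genes passed in the same direction. They are RefSeq promoter windows of GRCm38.p6 from 120 bases before to 30 bases after the transcription start, read 5′ to 3′ on the transcribed minus strand, with matches to TTTGAA (CHR) and to CCAAT, searched on either strand, in capitals. The windows are chr9:70421525-70421674 for Ccnb2, chr4:118437314-118437463 for Cdc20 and chr2:69206184-69206333 for Spc25.
Ccnb2: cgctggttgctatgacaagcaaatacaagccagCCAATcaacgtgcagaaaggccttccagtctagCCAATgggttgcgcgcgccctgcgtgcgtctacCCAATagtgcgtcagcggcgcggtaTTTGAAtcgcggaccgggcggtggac
Cdc20: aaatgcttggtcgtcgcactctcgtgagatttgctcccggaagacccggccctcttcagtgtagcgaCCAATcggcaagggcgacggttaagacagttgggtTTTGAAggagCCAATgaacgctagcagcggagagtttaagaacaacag
Spc25: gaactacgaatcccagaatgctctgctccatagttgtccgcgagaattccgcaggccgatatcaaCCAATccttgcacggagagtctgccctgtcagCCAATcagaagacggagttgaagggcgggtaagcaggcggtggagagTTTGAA
Counted from the start as 1 and giving the first base of each match, Ccnb2 held the CCAAT word at -87, -54 and -21 and the CHR word at 5, Cdc20 held the CCAAT word at -53 and -8 and the CHR word at -18, and Spc25 held the CCAAT word at -55 and -23 and the CHR word at 25. In these windows no match overlapped another. The table of promoters matched 29 of the 36 genes with 31 windows of 300 bases. Of the 16 windows of G2, mitosis and kinetochore genes, 10 held the CHR word, against 1 of 10 windows of S phase genes and 17.9% of all 32851 windows. The CCAAT word was in 13 of the 16, in 9 of the 10 S phase windows and in 37.4% of all windows. Both words were in 9 of the 16, in 1 of the 10 S phase windows and in 6.95% of all windows. The words TTTCCCGC, TTTGGCGC, TTTCGCGC and TTTGCCGC, forms of the site of E2F factors, were in 4 of 10 S phase windows (Mcm3, Mcm5, Mcm6 and Mcm7), in 2 of the 16 (Cdc25a and Cdk1) and in 2.26% of all windows. Neither window of Cdkn1a held any of these words. A match describes the letters only.

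Cdkn1a encodes p21, the inhibitor that p53 induces after DNA damage, and 273 of its exon bases are shared with the annotated gene AC167363.2. It was at 0.486, 0.556 and 0.303 CPM in matBFMI, at 0.649, 0.683 and 0.388 CPM in patBFMI and at 0.518 CPM in the B6N male, with 1.2 CPM in the B6N female, 2.41 CPM in the BFMI female and 7.61 CPM in the BFMI male. The BFMI male thus set most of the difference, and the B6N male lay within the F1 range. The log2 fold change of -2.26 (SE 0.436, adjusted p = 0.0309) became -0.57 without the BFMI male (adjusted p = 0.864). The call was also lost without matBFMI 1, matBFMI 2, matBFMI 3 or patBFMI 3. The other inhibitor, Cdkn1b, was at 20.1 to 22.9 CPM in the inbred libraries and 20.1 to 28.2 CPM in F1, and did not pass (log2 fold change 0.15, SE 0.121, adjusted p = 0.561).

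Further genes of division lay close to the threshold in the same direction. Ccnb1, the other cyclin B, was at 0.299, 0.0695 and 0.0567 CPM in matBFMI, at 0.177, 0.149 and 0.152 CPM in patBFMI and at 0.536 to 0.835 CPM in the inbred libraries (log2 fold change -2.12, SE 0.48, adjusted p = 0.0543). The F1 and inbred ranges were apart, as the filter favoured for this gene. Ccna2, the cyclin of S phase and G2, ranged from 0.413 to 0.841 CPM in F1 and from 0.912 to 2.03 CPM in the inbred libraries (adjusted p = 0.0555), and Mki67 from 1 to 3.35 CPM and from 3.38 to 7.9 CPM (adjusted p = 0.0683). Cdk1, the kinase of mitosis, overlapped between the groups, at 0.512 to 1.03 and 0.895 to 1.8 CPM (adjusted p = 0.0783). Top2a, which untangles DNA, stood at -1.24 on the log2 scale (adjusted p = 0.112), and Foxm1 at -1.25 (adjusted p = 0.159). Leaving out Ccnb1 and Plk1, 6 of 34 genes (Mki67, Ccna2, Ccnb2, Cdc20, Ccnd1 and Foxm1) had every F1 library below every inbred one and none showed the reverse. Among the 17351 genes that passed in the same way, with 10 reads in 2 or more F1 libraries, 2.14% had every F1 library below every inbred one, and 2.71% of all genes tested did.

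**Figure D4:**
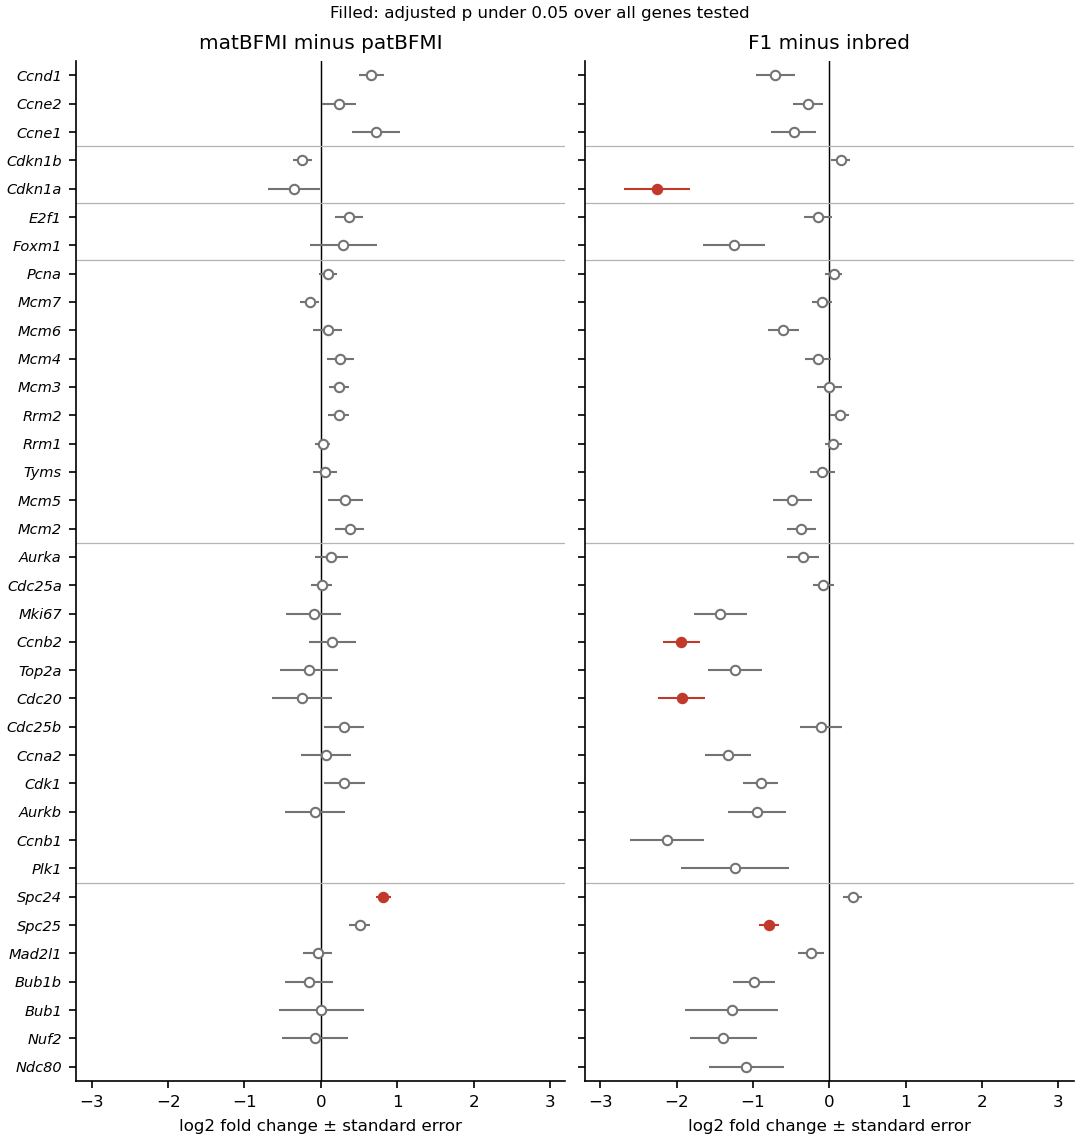
Log2 fold change with its standard error for matBFMI minus patBFMI (left, 33 genes tested) and for F1 minus inbred (right, 36 genes), by role from the G1 cyclins at the top to the kinetochore at the bottom. Filled points passed an adjusted p of 0.05, which were Spc24 on the left and Cdkn1a, Ccnb2, Cdc20 and Spc25 on the right, and the S phase genes lie between 0.38 (Mcm2) and -0.15 (Mcm7) on the left and between 0.13 (Rrm2) and -0.60 (Mcm6) on the right.

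The difference was not limited to these 36 genes. Of 59 further genes of G2 and mitosis, 8 passed, all lower in F1, beside 0.916% of all genes tested that were called lower. Among the 52 that did not enter through the inbred libraries alone, 48 had a log2 fold change below 0, with a median of -0.79. The 8 were Cenpf, Cenpe and Knl1 of the kinetochore, Hmmr, Tpx2, Dlgap5 and Kif20b of the spindle and the centrosome kinase Nek2, with log2 fold changes of -1.69, -1.68, -1.53, -2.08, -1.55, -1.92, -1.14 and -1.1. These 8 were at 4.23 fold (Hmmr) to 2.14 fold (Nek2) lower levels. Hmmr was at 0.17 to 0.576 CPM in F1 and at 1.79, 0.718, 1.16 and 1.04 CPM in the BFMI male, BFMI female, B6N male and B6N female. Of 46 further S phase genes 1 passed, higher in F1, while 2.05% of all genes tested were called in either direction. This was Tk1, the thymidine kinase of DNA synthesis, with a log2 fold change of 1.09 (SE 0.168, adjusted p = 0.0146). Its call was lost without matBFMI 3, the BFMI male or the B6N male (adjusted p up to 0.293). It was at 16.4 to 27.2 CPM in F1, at 14.6 and 26.9 CPM in the BFMI male and female and at 7.38 and 12.4 CPM in the B6N male and female. No regulator of G1 and S phase passed (0 of 30 with edgeR). At an unadjusted p under 0.05 there were 2 (6.67%, beside 16.6% of all genes tested). Of 25 p53 targets 1 passed, Bbc3, which promotes cell death, higher in F1 by 1.05 on the log2 scale (adjusted p = 0.0244).

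The BFMI male bears much of this comparison. It was the highest library for 13 of the 36 genes. Without it none passed and 13 genes were called among all tested, with log2 fold changes of -1.82 for Ccnb2 (adjusted p = 0.23), -1.76 for Cdc20 (0.377) and -1.02 for Spc25 (0.157). The median of the 10 genes of G2 and mitosis was then -0.69, and 8 of the 10 were below 0. Without the B6N male, Ccnb2 (adjusted p = 0.0518), Cdc20 (0.0808) and Spc25 (0.197) also lost their calls, and Ccnd1 passed instead beside Cdkn1a. B6N was then the female alone, where Ccnd1 was at 53.7 CPM, against 13.3 to 17.8 CPM in the other inbred libraries. Spc25 and Cdkn1a lost their calls without matBFMI 2, and without patBFMI 1 the number of calls went up to 8. Among males only, log2 fold changes were -1.95 for Ccnb2, -1.94 for Cdc20, -0.81 for Spc25 and -1.98 for Cdkn1a. This fit in effect repeats the main contrast, as all F1 animals were male, so it is no separate check. Without the 3 libraries richest in sensory receptor reads (patBFMI 1, the BFMI male and the B6N female), an alternative chosen after seeing the data, Spc25 and Ccnd1 passed, Ccnb2 was at -1.44 (adjusted p = 0.0522) and 26 of the 34 genes other than Ccnb1 and Plk1 were below 0. That fit had no sex term, and its inbred side was the BFMI female and the B6N male. Markers of other cells differed as well between F1 and inbred animals in the main fit. The macrophage markers summed to 223 to 296 CPM in F1, 265 and 337 CPM in BFMI and 444 and 469 CPM in B6N. Of these 11 of 11 were below 0 and 4 were lower past the threshold (Marco, Csf1r, C1qb and Cd5l). Of 5 pancreas markers 3 were called lower too. However, Prss2, Ctrb1, Cpa1 and Pnliprp1 entered the fit only through inbred libraries, so their sign was set by the filter. Outside B6N they were at 0.155 CPM or less, in BFMI as in F1. Lymphocyte markers summed to 1.79 to 3.33 CPM in F1 and 2.77 to 5.04 CPM in the inbred libraries. Their part in the result was not tested.

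**Figure D5:**
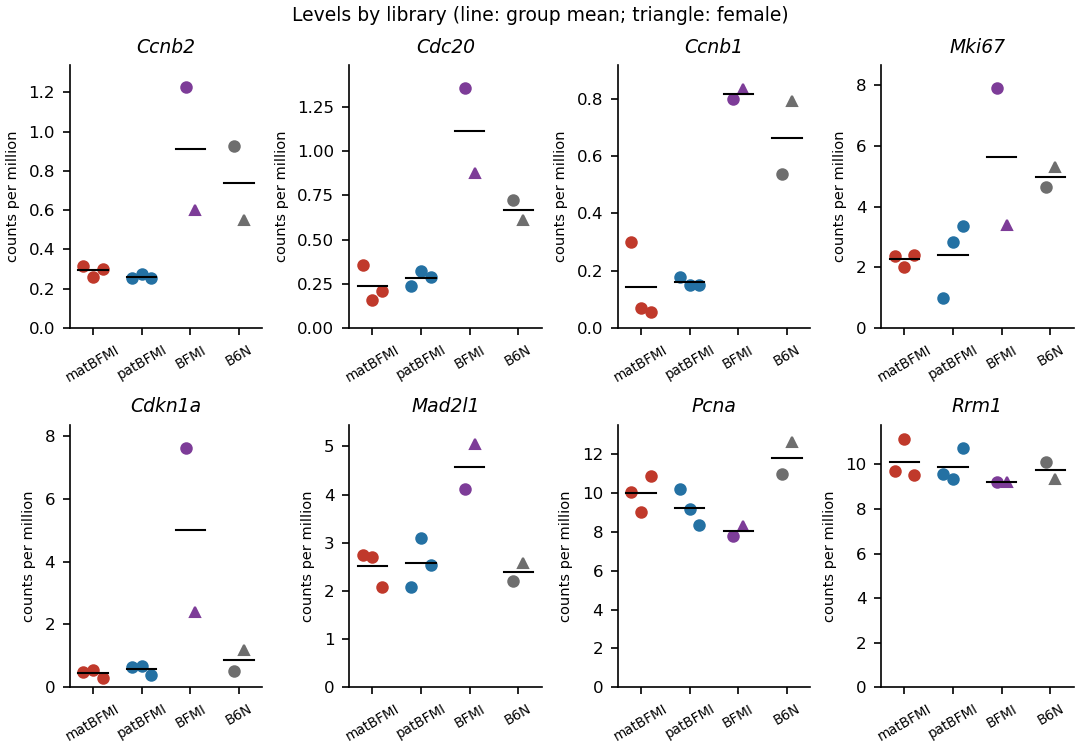
CPM of Ccnb2, Cdc20, Ccnb1, Mki67, Cdkn1a, Mad2l1, Pcna and Rrm1 in each library (points), with group means as lines, females as triangles and axes that start at 0. The F1 males lie below every inbred library for Ccnb2, Cdc20, Ccnb1 and Mki67, the BFMI male stands at 7.61 CPM for Cdkn1a, and Rrm1 stays between 9.2 and 11.1 CPM.

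Between the obese BFMI and the lean B6N strain, 4 of the 36 genes passed, beside 6.67% of all genes tested. E2f1, Mad2l1 and Cdkn1a were higher and Pcna was lower in BFMI. E2f1 was at 2.88 CPM in the BFMI male and 1.77 CPM in the BFMI female and at 1.07 and 0.935 CPM in the B6N male and female, with the F1 libraries at 1.3 to 2.17 CPM, above both B6N animals and on either side of the BFMI female. The log2 fold change was 1.18 (SE 0.233, adjusted p = 0.0132). Mad2l1, a core protein of the spindle checkpoint, was at 4.11 and 5.05 CPM in BFMI and at 2.2 and 2.58 CPM in B6N, and the F1 libraries, at 2.08 to 3.09 CPM, lay below both BFMI animals. Its log2 fold change was 0.93 (SE 0.213, adjusted p = 0.0275).

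Cdkn1a differed between the strains by a log2 fold change of 2.4 (SE 0.567, adjusted p = 0.0323). It was 1.03 without the BFMI male and 1 without the B6N male, where in effect the BFMI female was set against the B6N female. Without either female it was 3.87, in effect the BFMI male against the B6N male. Each of these values compares 1 animal with 1 other. Both BFMI animals, at 7.61 and 2.41 CPM, were above both B6N animals, at 0.518 and 1.2 CPM. Of the 25 p53 targets, Aen, a nuclease of apoptosis, was higher in BFMI (log2 fold change 1.08, adjusted p = 0.00948) and no other passed. Pcna was at 7.77 and 8.33 CPM in BFMI and at 11 and 12.6 CPM in B6N (log2 fold change -0.55, SE 0.14, adjusted p = 0.0434). The annotated copy Pcna-ps2 held more reads than the gene in every library but the B6N female, at 10.5 to 13.9 CPM, so the level of Pcna is uncertain where reads were shared. Rrm2 missed the threshold in the same direction, at 2.27 and 2.78 CPM in BFMI against 3.55 and 4.01 CPM in B6N (adjusted p = 0.0545). Of the 12 genes of G2 and mitosis none passed with edgeR or DESeq2, none had an unadjusted p under 0.05, and the median log2 fold change was 0.13.

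Further genes of division differed between the strains singly, at shares not above that of all genes. Of 46 further S phase genes 2 passed as higher and 1 as lower, and of 59 further genes of G2 and mitosis 2 as lower. Of all genes tested, 6.67% passed. At an unadjusted p under 0.05 (edgeR) the shares were 15.2% and 10.2%, beside 18.3% of all genes tested. Gins3, part of the helicase that copies DNA, and Tk1 were higher in BFMI (1.66 and 1.05 on the log2 scale, adjusted p = 0.00405 and 0.01), and the polymerase gene Pold1 was lower (log2 fold change -0.82, adjusted p = 0.0352). Pttg1, the securin that holds sister chromatids together, was at 1.71 and 1.94 CPM in BFMI and at 15.6 and 14.4 CPM in B6N (log2 fold change -3.05, SE 0.749, adjusted p = 0.038), and Ect2, needed for the final cut between daughter cells, fell by 1.01 on the log2 scale (adjusted p = 0.0396). Each strain has 2 animals, and the fit borrows its spread from the F1 males. Without 1 inbred animal, the sex term leaves in effect 1 animal per strain, of the other sex. The calls of Cdkn1a and E2f1 were lost without the BFMI male or without the B6N male, that of Mad2l1 without any 1 inbred library and that of Pcna without any 1 library except patBFMI 1 and patBFMI 2. Without either of these males the comparison was in effect the BFMI female with the B6N female, where Ccnd1 was at 17.8 and 53.7 CPM. Beside these values, alpha globin Hba-a1 and Hba-a2 were higher in BFMI, while 5 of 11 macrophage markers and 4 of 5 pancreas markers (Prss2, Ctrb1, Cpa1 and Pnliprp1) were lower. Prss2, Ctrb1 and Cpa1 entered the fit through the B6N libraries alone, so their sign was set by the filter on low counts. Of 5 endothelial markers Lyve1 was lower, while 3 had log2 fold changes above 0. The part of all these markers in the result was not tested. The BFMI female and the B6N female, compared when the BFMI male was left out, were both on lane 4.

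Between females and males, compared in the inbred strains only, none of the 36 genes passed with edgeR, beside 0.556% of all genes tested. At an unadjusted p under 0.05, 1 was higher in females (Ccnd1) and 3 were lower (Ccnb2, Cdc25a and Cdk1), and DESeq2 called 1. These are 11.1% of the 36 genes, beside 7.8% of all genes tested with such a p. Ccnd1 was at 13.3 CPM in the BFMI male and 17.8 CPM in the BFMI female, and at 13.5 CPM in the B6N male and 53.7 CPM in the B6N female. The B6N female therefore stood alone, and the log2 fold change of 1.21 had an SE of 0.324 (adjusted p = 0.198). The gene LTO1 on the opposite strand shares 1100 bases, 23.4% of the exon length of Ccnd1, and was at 5.7 to 8.86 CPM in all libraries and at 7.52 CPM in the B6N female. With DESeq2, and with edgeR on the 4 inbred libraries alone or without a filter on low counts, Ccnd1 passed as higher in females. The same library was highest for 10 of the 36 genes, and for Prss2 of the pancreas. In this fit all 5 pancreas markers were higher in females at an unadjusted p under 0.05, of which Cela1 passed (adjusted p = 0.0393, edgeR). Cela1 was at 13.7 to 28.1 CPM in all libraries, also where Prss2 was at most 0.059 CPM. Prss2 and Cpa1 were lower in the BFMI female than in the BFMI male, so their sign came from B6N. Of 7 erythroid markers Alas2 passed as lower (adjusted p = 0.0484), while 3 of the 7 had log2 fold changes above 0 and 4 below. The part of these markers in these values was not tested. Of the 12 genes of G2 and mitosis 11 had log2 fold changes below 0 in females, with a median of -0.48 beside 0.03 over all genes tested. The sum of these 12 genes was 26.2 CPM in the BFMI male and 14.4 CPM in the BFMI female. In B6N it was 21.2 CPM in the male and 20.8 CPM in the female. The gap in the sum thus came mostly from BFMI. A test of the interaction of strain and sex with edgeR called none of the 36 genes, with a smallest adjusted p of 0.244 for Cdkn1a and 3 genes at an unadjusted p under 0.05.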

How the data were processed

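Liver RNA of 10 animals was sequenced with paired reads after removal of ribosomal RNA. The authors trimmed and aligned the reads to GRCm38, with Trimmomatic 0.32, Bowtie2 2.2.6, TopHat2 2.10 and Picard 1.99 per the submitters' processing notes, while the paper gives BWA as aligner. The deposited counts are raw reads per Ensembl gene in union mode. The deposited RPKM were computed by the authors after quantile normalization. They served only in alternatives and in choosing named genes, since at 200 to 500 reads the RPKM of a given share of reads was 1.07 to 1.25 times the median library in the inbred animals and patBFMI 1 and 0.617 to 0.932 times in the other F1 libraries. In both tables, 3 columns belong to no sample record and were not used. Symbols, positions and exon lengths came from GENCODE M21 (40254 of 41388 genes).

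Counts were tested with edgeR 4.0.16 in R 4.3.3 (quasi-likelihood, TMM, Benjamini-Hochberg over all genes tested, threshold 0.05). A gene entered the F1 fit with 10 counts in 3 or more libraries and the fit of all 10 libraries with 10 counts in 2 or more. The biological coefficient of variation was 15.9% and 17.7%. P-values measure the spread between animals, 1 library each. In the fit of all 10 libraries that spread came mostly from the F1 males, as no inbred strain had 2 animals of a sex. That fit held strain, sex and F1 state together. Reads of overlapping or copied genes may be shared. Simulated counts served to check the scripts. Alternatives used DESeq2 1.42.0, limma 3.58.1, other scalings and filters, an offspring block, and left out each library. Values per library are given for members that passed, the 2 of each role with the highest RPKM, and the smallest p of each comparison, and others were chosen after their values were seen. Members and lists were chosen with earlier results of these data known. Figures were drawn in Python 3.11.15.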

Additional observations from a re-analysis of the deposited data

How the results depend on the processing

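Of the 36 genes, matBFMI against patBFMI gave 1 call, and 2 with DESeq2 or with no filter on low counts, 0 with limma on the deposited RPKM (pseudocount 1 or 0.1), 0 in a fit of all 10 libraries, and 0 to 1 when a library was left out. BFMI against B6N gave 4 calls, 0 with limma at either pseudocount and 3 to 5 when an F1 library was left out. Without an inbred library, in effect 1 animal per strain is left. The 7 libraries with fewer sensory receptor reads, a choice made after seeing the data, were fitted without a sex term. There the BFMI female was set against the B6N male, so strain and sex cannot be told apart. The log2 fold changes were 2.21 for Cdkn1a, 1.19 for Mad2l1, 0.71 for E2f1 and -0.41 for Pcna. Females against males gave 0 calls, 1 with DESeq2, with no filter or in the 4 inbred libraries alone, and 0 to 1 when a library was left out. F1 against inbred gave 4 calls, 8 with DESeq2, 12 with no filter, 0 with limma at a pseudocount of 0.1, 2 in the 7 libraries, and 0 to 8 when a library was left out. Each called member kept its sign under every alternative in which it was tested. With the RPKM the median of all genes in F1 against inbred was -0.28 (pseudocount 1) and -0.67 (0.1), against 0.01 with counts, where the members' median lay 0.29 and 0.63 below it, and in matBFMI against patBFMI it turned the members' median from 0.10 to -0.04 (all genes -0.08). Among all genes, matBFMI against patBFMI gave 24 calls (305 with DESeq2, 696 with no filter), females against males 111 (384 and 582) and F1 against inbred 410 (871 and 1410, and 13 without the BFMI male). Depth limits the genes of mitosis most, as some had 2 to 19 reads in the F1 libraries.

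The offspring numbers of the F1 males did not pair the libraries. Their deviations correlated at 0.3, -0.06 and 0.1 for numbers 1, 2 and 3, and matBFMI 2 correlated best with patBFMI 3 (0.23). With the number as a replicate block 1 member was called, Spc24 again, and the calls among all genes went from 24 to 175.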

Other observations

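Pttg1, which was higher in B6N than in BFMI, also differed among the patBFMI males. It was at 1.38 and 1.24 CPM in patBFMI 1 and 2 and at 8.39 CPM in patBFMI 3, while the matBFMI males lay at 1.48 to 2.23 CPM. The level of patBFMI 3 lay between those of BFMI (1.71 and 1.94 CPM) and B6N (15.6 and 14.4 CPM).

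Wee1 and Plk3 had the same order among the matBFMI males. In matBFMI 2 they stood at 3.25 and 18.7 CPM, against 6.52 and 41.6 CPM in matBFMI 1 and 6.69 and 43.7 CPM in matBFMI 3. The B6N female, which had the highest Ccnd1, was also the highest inbred library for Plk3 at 28.3 CPM.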
